A study of Mus musculus with 2 samples.

Results

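The cells described here are 570 basal keratinocytes of the mouse tongue, low in mitotic transcripts, that carried transcripts of Npnt, Frem2 or Sema3c. They were chosen out of 1477 basal cells low in mitotic transcripts and 4078 cells kept in all. The series holds 2 single-cell RNA libraries of tongue epithelium from male B57BL/6 mice aged 8 to 12 weeks, 1 collected at ZT12 and 1 at ZT0. ZT is Zeitgeber time, counted in hours from lights on, so that the light phase usually ends at ZT12. Neither library carried a labelled genotype or treatment, and the epithelium of both was dissociated with an enzyme and sorted for living cells by exclusion of 7-AAD, a dye that enters dead cells. How many mice went into a library was not stated in the sources used here; as each time has a single library, nothing was tested.

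The basal layer of a stratified epithelium holds the keratinocytes that sit on the basement membrane and divide to renew the layers above. These cells attach through hemidesmosomes, which join integrins and collagen XVII to laminin, and they also make part of the matrix below them. Nephronectin, the product of Npnt, and the FREM2 protein belong to that matrix, while semaphorin 3C, the product of Sema3c, is a secreted guidance signal read by neuropilins and plexins. The dorsal tongue carries filiform papillae, hard epithelial projections rich in hair-type and stress keratins, which basal cells renew.

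Members were chosen by their own transcript counts. A cell was kept with at least 500 genes, at least 5000 UMIs and under 10% mitochondrial UMIs, where a UMI (unique molecular identifier) marks 1 captured transcript. It was basal with at least 10 UMIs of Col17a1, Itga6 and Itgb4 together per 10000 UMIs, and fewer than 10 per 10000 of the mitotic genes Top2a, Mki67, Ube2c, Cenpf, Birc5 and Nusap1. It was a member with at least 3 UMIs of Npnt, Frem2 and Sema3c together and with more of these than of Pappa, Nppc and Hmcn1. Since the rule used expression, every comparison of members with other basal cells below is a description of the selected cells, and nothing is tested on it.

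The ZT12 library gave 357 members of 968 basal cells and 2553 kept cells, and the ZT0 library 213 members of 509 basal cells and 1525 kept cells. Members had a median of 17968 UMIs and 4284 genes at ZT12 and of 21931 UMIs and 4765 genes at ZT0, and their summed counts were 6609931 and 4849858 UMIs. The other basal cells had medians of 19020 UMIs at ZT12 and 23244 UMIs at ZT0. Members were thus slightly shallower than the other basal cells in both libraries, and the ZT12 library was shallower than the ZT0 library. The remaining basal cells comprised 232 Pappa-type cells at ZT12 and 141 at ZT0, with at least 3 UMIs of Pappa, Nppc and Hmcn1 and more of these than of the 3 member genes, and 369 cells at ZT12 and 149 at ZT0 that had fewer than 3 UMIs of either set. Of the cell barcodes, 2 occurred in both libraries, none of them as a member in both. Levels below are CPM, the UMIs of a gene scaled to a common total of 1e6, from UMIs summed over the cells of a group, log2 ratios are of CPM plus 1, and 95% intervals cover counting error only. Because 3' UMI counts carry no length term, levels are compared between groups of cells and not between genes.

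Members made up 36.9% of basal cells at ZT12 (exact Clopper-Pearson 95% interval 33.8 to 40.0%), against 41.8% at ZT0 (37.5 to 46.3%). The ratio of the shares was 0.88, with an interval of 0.74 to 1.05 that includes 1. A limit of 3 UMIs is easier to reach in a deeper cell. When every cell was thinned to 5000 UMIs before the rule was applied, members were 12.4% of basal cells at ZT12 (10.5 to 14.6%) and 11.9% at ZT0 (9.24 to 15%). No difference in the share of members between the libraries was detectable at this depth. Members that met the rule after thinning numbered 125 at ZT12, 122 of them also members at full depth, and 61 at ZT0, all 61 also members at full depth.

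Most members carried more than 1 of the 3 rule genes. UMIs of all 3 were found in 44.0% of members at ZT12 and 47.4% at ZT0. Frem2 with Sema3c but without Npnt was the next most frequent pattern, with 96 members at ZT12 and 54 at ZT0. Cells that qualified on Npnt alone were rare, with 3 at ZT12 and 1 at ZT0, whereas 16 cells at ZT12 and 3 at ZT0 qualified on Frem2 alone and 20 at ZT12 and 21 at ZT0 on Sema3c alone.

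The rule genes set the members apart by construction, and their levels are given as the values that chose the cells. Npnt (ENSMUSG00000040998, mm10 chr3:132881745-132950291, minus strand) stood at 105 CPM in members and 7.93 CPM in other basal cells at ZT12, and at 85.0 CPM in members and 4.67 CPM in other basal cells at ZT0. Frem2 (ENSMUSG00000037016, chr3:53513938-53657355, minus strand) had 135 CPM in members against 17.1 CPM in other basal cells at ZT12, and 101.4 CPM in members against 15 CPM in other basal cells at ZT0. Sema3c (ENSMUSG00000028780, chr5:17574281-17730268, plus strand) had 190 CPM in members and 32.9 CPM in other basal cells at ZT12, and 191 CPM in members and 31.8 CPM in other basal cells at ZT0. All 3 genes were thus lower, but not absent, in the other basal cells. These included 59 cells at ZT12 and 37 at ZT0 with 3 or more UMIs of the rule genes but not more than of the Pappa-type genes. In those cells Sema3c had 113 CPM at ZT12 and 90.5 CPM at ZT0. At 5000 UMIs per cell, Npnt was detected in 37.8% of members, 3.93% of other basal cells and 0.616% of cells low in basal genes at ZT12. The last group, 974 cells at ZT12 and 565 at ZT0 with under 2 basal UMIs per 10000, had median depths of 33041 and 38889 UMIs. Free RNA and low expression cannot be told apart in it, and it is no background level for Nrp2, Krt24, Spink5 or Hoxc13, which it holds at the levels given below.

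Of the 6 markers given for these cells, the other 3 took no part in the rule. They came with the choice of these cells, so their high levels are description and no separate support. Nrp2 (ENSMUSG00000025969, chr1:62703285-62818695, plus strand), a neuropilin that binds class 3 semaphorins, had 133 CPM in members and 6.85 CPM in other basal cells at ZT12, and 225 CPM in members and 9.04 CPM in other basal cells at ZT0. Its ratio was 19.3 (15.4 to 24.5) at ZT12 and 24.9 (19.2 to 32.7) at ZT0. Trabd2b (ENSMUSG00000070867, chr4:114406724-114615098, plus strand), whose product TIKI2 is a membrane metalloprotease that cleaves Wnt proteins, had 136 CPM in members against 13 CPM in other basal cells at ZT12 and 155 CPM in members against 7.87 CPM in other basal cells at ZT0. Both were low in the other basal cells and high in members of either library. Igfbp3 (chromosome 11), which encodes a secreted binding protein of insulin-like growth factors, was less confined, with 579 CPM in members and 227 CPM in other basal cells at ZT12 and 693 CPM in members and 247 CPM in other basal cells at ZT0. Within the other basal cells Igfbp3 stood at 104 CPM in Pappa-type cells and 318 CPM in cells low in both sets at ZT12. Nrp2 was also found in cells low in basal genes, at 23.2 CPM at ZT12 and 51.9 CPM at ZT0. There it was detected at 5000 UMIs in 9.03% and 11.9% of cells, below the 25.5% and 33.8% of members.

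**Figure D1:**
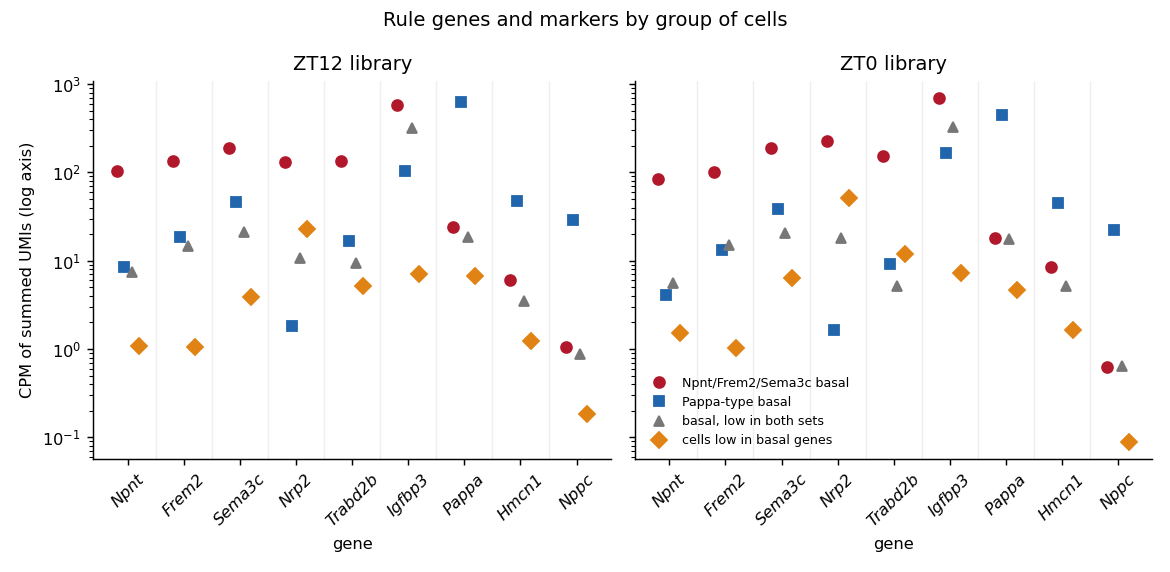
CPM of summed UMIs on a log axis for the 3 rule genes, the 3 other markers and the 3 Pappa-type genes, in members, Pappa-type basal cells, basal cells low in both gene sets and cells low in basal genes, at ZT12 (left) and ZT0 (right), 1 point per group and library. Nrp2 and Trabd2b stand above 100 CPM in members of both libraries, and Nrp2 is under 2 CPM in Pappa-type cells.

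The windows around the start sites of Npnt, Frem2, Sema3c and Nrp2 are shown because these genes were high in members. That of Krt24 is shown because its base composition differs from theirs. They are RefSeq windows of the GRCm38.p6 build, from 250 bases before to 50 after the start, written 5′ to 3′ on the strand of the gene, with CG dinucleotides in capitals. The Npnt window is chr3:132950242-132950541 on the minus strand, Frem2 chr3:53657306-53657605 on the minus strand, Sema3c chr5:17574566-17574865 on the plus strand, Nrp2 chr1:62703067-62703366 on the plus strand and Krt24 chr11:99285213-99285512 on the minus strand.
Npnt: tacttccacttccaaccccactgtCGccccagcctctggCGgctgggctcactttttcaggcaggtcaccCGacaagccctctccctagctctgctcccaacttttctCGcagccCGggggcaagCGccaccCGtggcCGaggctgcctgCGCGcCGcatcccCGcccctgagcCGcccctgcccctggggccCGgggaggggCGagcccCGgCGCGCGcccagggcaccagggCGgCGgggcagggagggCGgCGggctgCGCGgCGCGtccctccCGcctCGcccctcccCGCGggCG
Frem2: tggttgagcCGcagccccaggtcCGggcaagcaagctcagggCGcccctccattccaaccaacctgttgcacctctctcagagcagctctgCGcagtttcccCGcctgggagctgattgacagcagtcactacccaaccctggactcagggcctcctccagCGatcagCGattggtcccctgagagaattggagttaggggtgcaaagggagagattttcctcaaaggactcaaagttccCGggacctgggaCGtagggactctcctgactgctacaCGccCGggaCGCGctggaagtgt
Sema3c: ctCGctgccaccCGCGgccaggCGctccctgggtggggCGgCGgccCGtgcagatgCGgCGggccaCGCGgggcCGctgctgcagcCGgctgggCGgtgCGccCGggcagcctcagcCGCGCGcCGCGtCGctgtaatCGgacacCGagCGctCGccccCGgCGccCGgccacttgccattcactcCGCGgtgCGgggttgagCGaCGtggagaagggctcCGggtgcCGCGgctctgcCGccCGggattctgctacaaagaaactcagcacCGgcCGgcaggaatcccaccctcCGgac
Nrp2: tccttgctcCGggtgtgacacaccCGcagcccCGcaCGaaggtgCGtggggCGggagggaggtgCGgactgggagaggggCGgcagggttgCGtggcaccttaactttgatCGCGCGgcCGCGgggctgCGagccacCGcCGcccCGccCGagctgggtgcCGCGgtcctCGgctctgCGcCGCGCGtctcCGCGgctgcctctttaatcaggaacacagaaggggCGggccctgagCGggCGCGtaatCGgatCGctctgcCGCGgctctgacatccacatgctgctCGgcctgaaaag
Krt24: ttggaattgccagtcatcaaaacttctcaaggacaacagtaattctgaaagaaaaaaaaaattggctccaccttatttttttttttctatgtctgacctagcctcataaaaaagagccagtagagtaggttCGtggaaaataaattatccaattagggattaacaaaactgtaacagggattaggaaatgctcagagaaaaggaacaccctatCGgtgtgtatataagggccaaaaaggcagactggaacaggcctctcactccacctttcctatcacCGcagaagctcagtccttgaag
The windows of Npnt, Sema3c and Nrp2 held 32, 42 and 37 CG dinucleotides and were 76.7%, 75.7% and 70.7% GC. Npnt had a second window, chr3:132949765-132950064, which is not printed and held 26 CG dinucleotides and 68% GC. Frem2 had 13 CG dinucleotides and 60.3% GC, and Krt24 had 3 and 39.7%. Over all 32851 mouse windows the medians were 7 CG dinucleotides and 52.7% GC, so the 4 genes that mark the members lay above the median and Krt24 below it. A search on both strands for the TCF/LEF core CTTTGAT found 1 match among the 5 printed windows, at position 105 of the Nrp2 window counted from its 5′ end. That motif occurred in 3.73% of all windows. The forkhead core TGTTTAC, which occurred in 3.65% of all windows, was found in none of these 5. Of the 12 genes higher in members with a matched window, Cux1 had 1 match to it, at position 93. Such a match is a string of letters and not a binding site.

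Several genes moved with the UMIs of the 3 rule genes across basal cells, on both sides of the limit, and others stepped mainly at the limit. Pappa-type cells with fewer than 3 of these UMIs remain in the bins below the limit, whereas in the bins above it only members were counted. Plxna2, a plexin receptor for semaphorins, had 1084 CPM in ZT12 members with 10 or more UMIs of these genes, against 128 CPM in ZT12 basal cells with none. Trabd2b had 3.57 CPM at 0 UMIs, 43.7 CPM at 3 UMIs and 234 CPM at 10 or more in the same library. Krt13, a keratin of the differentiating mucosa, ran the other way, with 11818 CPM at 0 UMIs, 7090 CPM at 3 and 971 CPM at 10 or more. At ZT0 Krt13 had 5435 CPM, 2932 CPM and 888 CPM in the same bins. Foxq1 at ZT0 had between 51.2 and 60.4 CPM in the bins below the limit and between 168 and 232 CPM in those above it, with 232 CPM at 3 UMIs and 178 CPM at 10 or more. At ZT12 Foxq1 had 182 CPM at 3 UMIs, 170 CPM at 4 to 5 and 272 CPM at 10 or more. Members near the limit were thus less distinct in Trabd2b, Plxna2 and Krt13, and in Foxq1 at ZT12 but not at ZT0. Just inside it, the 59 ZT12 members with 3 UMIs had 43.7 CPM of Nrp2 and 314 CPM of Krt24, against 10.4 CPM and 95.8 CPM in the 136 ZT12 cells just outside it with 2 UMIs. The 85 ZT12 members with 4 to 5 UMIs had 107 CPM of Krt24, so its ZT12 bins had no steady order. In ZT0 members Krt24 rose from 421 CPM at 3 UMIs to 569 CPM at 4 to 5 and 996 CPM at 10 or more. The 27 ZT0 members with 3 UMIs had 125 CPM of Nrp2, and the 64 ZT0 cells with 2 UMIs had 18.7 CPM. Median depth was similar across these bins, between 17346 and 19020 UMIs at ZT12 and between 20964 and 23244 UMIs at ZT0.

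**Figure D2:**
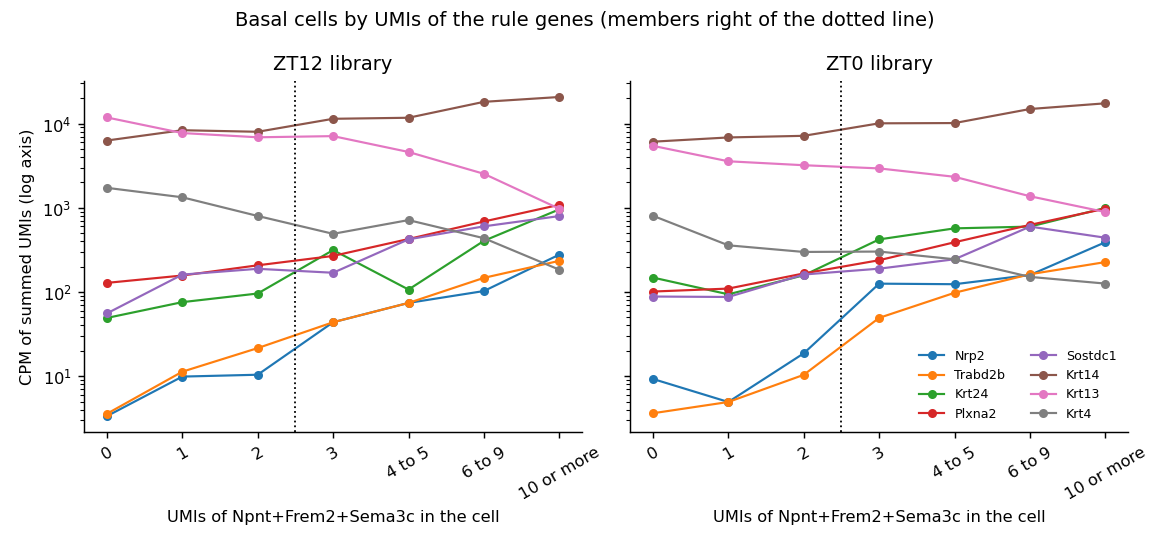
CPM of 8 genes on a log axis in basal cells grouped by their UMIs of Npnt, Frem2 and Sema3c, at ZT12 (left) and ZT0 (right). Nrp2, Trabd2b, Plxna2 and Krt14 stand higher and Krt13 and Krt4 lower toward the right, where members with 10 or more UMIs have 971 CPM of Krt13 at ZT12 and 888 CPM at ZT0. Cells with 3 or more UMIs that were not members are left out.

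Members also resembled each other in the genes that took no part in the rule or the marker list. Each basal cell's 15 nearest neighbours were found on 30 principal components computed without those genes. Among the neighbours of members, 63.5% were members at ZT12 and 69.3% at ZT0. Among the neighbours of other basal cells, 20.6% were members at ZT12 and 20.7% at ZT0, while members were 36.9% and 41.8% of basal cells. The members ranged widely in this respect, with quartiles of 40.0% and 93.3% at ZT12 and of 46.7% and 100% at ZT0.

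Of 2943 genes with a mean of at least 50 CPM, 46 were at least 2-fold higher in members than in other basal cells in both libraries, or 1.56%, and 16 were at least 2-fold lower, or 0.544%. These include the 6 markers, 3 of them rule genes, and Pappa. The median log2 ratio over all 5992 genes of at least 20 CPM was 0.01 at ZT12 and 0.04 at ZT0. Of the 46, 39 were also 2-fold higher than in Pappa-type cells and 37 than in cells low in both sets, and 30 exceeded both. Of the 16 lower genes, 5 were 2-fold lower than in Pappa-type cells, 11 than in cells low in both sets, and 1 than in both. The higher genes thus mostly set members apart from every other basal group, and the lower ones mostly reflected what 1 of the other groups had. At the looser limit used for gene lists below, 1.5-fold at a mean of at least 20 CPM, 170 of 5992 genes (2.84%) were higher and 86 (1.44%) lower in members in both libraries.

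**Figure D3:**
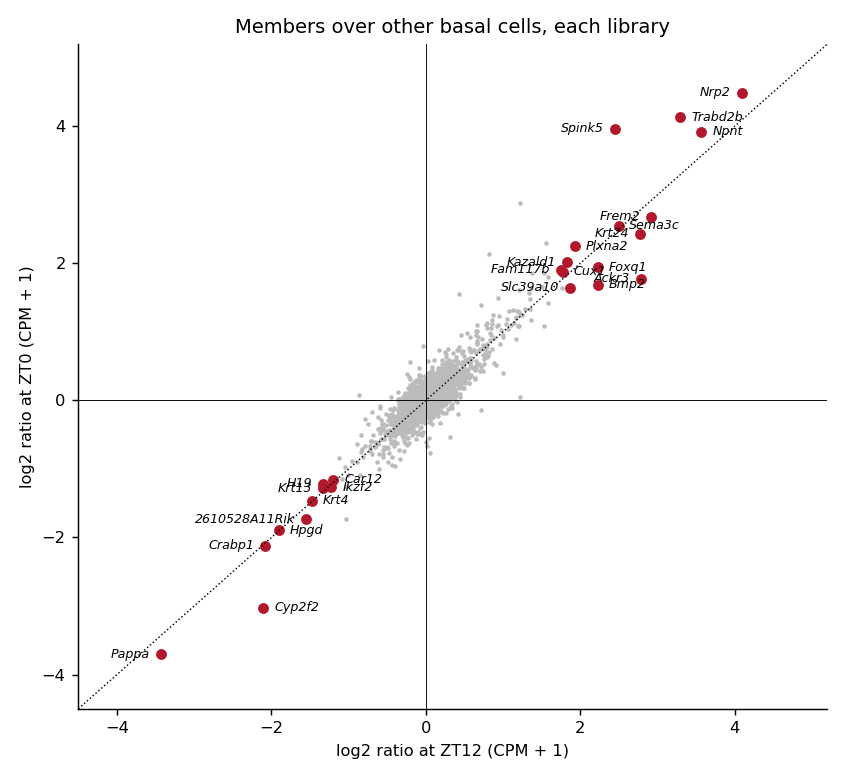
Log2 ratio of members over other basal cells (CPM plus 1) at ZT12 (horizontal) and ZT0 (vertical) for the 2943 genes of at least 50 CPM, grey, with the 25 named genes in red and a dotted line of equality. The named genes have the same sign in both libraries. Among those farther from the line, Spink5 has 2.45 at ZT12 and 3.96 at ZT0, Ackr3 2.79 at ZT12 and 1.78 at ZT0, and Cyp2f2 -2.10 at ZT12 and -3.02 at ZT0.

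Matrix and adhesion genes were high in members for a few components and close to other basal cells for the rest. Fras1, whose protein forms a complex with FREM2 at basement membranes, had 18.3 CPM in members and 0.83 CPM in other basal cells at ZT12, and 17.9 CPM in members and 2.33 CPM in other basal cells at ZT0. It fell below the 20 CPM limit and was chosen after its values were seen. Frem1 and Frem3, the relatives of Frem2, and Itga8, the integrin chain that pairs with Itgb1 to bind nephronectin, were at 0 in members of both libraries. The floor for 0 counts, 3 UMIs over the group, is 0.454 CPM at ZT12 and 0.619 CPM at ZT0. Egfl6, a relative of Npnt that also encodes an integrin-binding matrix protein, ran the other way, with 18.3 CPM in members and 54.2 CPM in other basal cells at ZT12 and 22.1 CPM in members and 53.7 CPM in other basal cells at ZT0. Egfl6 was highest in Pappa-type cells, at 93.6 CPM at ZT12 and 71.0 CPM at ZT0.

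Col17a1, Itga6 and Itgb4 chose the basal cells and so say nothing further on adhesion. Of 5 measured integrins 1 was higher, Itga2, a collagen-binding chain, at 49.3 CPM in members against 19.2 CPM in other basal cells at ZT12 and 56.1 CPM in members against 20 CPM in other basal cells at ZT0. Itgb6, a chain of an integrin that activates latent TGF-beta, was below the limit of the list, with 26.2 CPM in members and 6.6 CPM in other basal cells at ZT12 and 16.7 CPM in members and 7.73 CPM in other basal cells at ZT0. Col4a5, which encodes a basement membrane collagen IV chain, and Col18a1, which encodes collagen XVIII, were the 2 of 6 measured matrix genes that passed. Col4a6, the neighbour of Col4a5 on chromosome X, was below the limit of the list and had 19.8 CPM in members and 7.18 CPM in other basal cells at ZT12, and 24.9 CPM in members and 9.19 CPM in other basal cells at ZT0.

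Of 9 measured semaphorin genes and receptors, Sema3c, Nrp2 and Plxna2 were higher in members and Sema5a lower. Sema3c was high by the rule, and Nrp2 is a marker given for these cells. Plxna2 had 662 CPM in members and 173 CPM in other basal cells at ZT12, a ratio of 3.82 (3.62 to 4.02), and 641 CPM in members and 134 CPM in other basal cells at ZT0, a ratio of 4.77 (4.43 to 5.14). A class 3 semaphorin and a neuropilin and plexin of its receptor family were thus high in the summed counts of members. Whether single cells held all of them was not tested. Of 4 measured Slit and Robo genes, the secreted ligand gene Slit3 and the receptor gene Robo2 were higher. Robo2 had 66.1 CPM in members against 21.5 CPM in other basal cells at ZT12 and 93.6 CPM in members against 26.2 CPM in other basal cells at ZT0. Sema5a had 16.6 CPM in members and 31.5 CPM in other basal cells at ZT12, and 18.1 CPM in members and 36.9 CPM in other basal cells at ZT0. Ackr3, an atypical chemokine receptor that binds CXCL12, had 115 CPM in members against 15.8 CPM in other basal cells at ZT12 and 156 CPM in members against 44.9 CPM in other basal cells at ZT0.

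BMP and TGF-beta genes were higher in members for 7 of 15 measured genes and lower for none, with a median log2 ratio of 0.78 at ZT12 and 0.55 at ZT0. The 7 were the ligand genes Bmp2 and Tgfb1, the latent TGF-beta binding protein gene Ltbp1, the inhibitory Smad gene Smad7 and the BMP-induced regulators Id1, Id2 and Id3. Bmp2 had 126 CPM in members and 26.0 CPM in other basal cells at ZT12, and 83.9 CPM in members and 25.4 CPM in other basal cells at ZT0. Id1 had 477 CPM in members of both libraries, against 212 CPM in other basal cells at ZT12 and 207 CPM at ZT0. Id3 had 718 CPM in members and 317 CPM in other basal cells at ZT12, and 750 CPM in members and 304 CPM in other basal cells at ZT0. The ligand genes did not move as a block. Bmp4 had 19.5 CPM in members and 29.8 CPM in other basal cells at ZT12 and 22.3 CPM in members and 32.7 CPM in other basal cells at ZT0, and Bmp7 likewise had the lower value in members of both libraries. Sostdc1, a secreted BMP and Wnt inhibitor, was among the 46 genes that were 2-fold higher. In ZT12 members with 10 or more UMIs of the rule genes Sostdc1 had 797 CPM, against 55.6 CPM in basal cells with none.

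Secreted and membrane genes of the Wnt pathway were mostly close in both groups. Of 16 measured, the marker Trabd2b and the ligand gene Wnt5a were higher in members and the secreted inhibitor gene Sfrp1 lower. Wnt5a had 50.2 CPM in members and 18.8 CPM in other basal cells at ZT12, and 57.9 CPM in members and 15.7 CPM in other basal cells at ZT0. Sfrp1 had 48.0 CPM in members and 99.0 CPM in other basal cells at ZT12, and 37.5 CPM in members and 127 CPM in other basal cells at ZT0. Of 5 measured genes that Wnt signalling induces, 2 were higher. Tcf7, a transcription factor of the pathway, had 59.2 CPM in members and 20.6 CPM in other basal cells at ZT12, and 52.8 CPM in members and 17.5 CPM in other basal cells at ZT0. Apcdd1, a Wnt-induced inhibitor, had 55.5 CPM in members and 31.6 CPM in other basal cells at ZT12, and 116 CPM in members and 52.9 CPM in other basal cells at ZT0. Lef1 differed between the libraries, with 31.0 CPM in members against 57.4 CPM in other basal cells at ZT12 and 61.9 CPM in members against 58.3 CPM in other basal cells at ZT0.

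The Notch, fibroblast growth factor and EGF receptor lists gave few differences. Of 9 measured Notch genes 2 were 1.5-fold higher in members and none lower, the ligand genes Dll1 and Jag1. Dll1 had 30.3 CPM in members and 15.7 CPM in other basal cells at ZT12, and 36.7 CPM in members and 15.6 CPM in other basal cells at ZT0, and it had 0.213 and 0.179 CPM in cells low in basal genes at ZT12 and ZT0. None of 7 measured FGF and hedgehog genes passed in either direction. Of 6 measured genes of the EGF receptor family 1 was higher, the receptor inhibitor gene Errfi1, and none lower, and of 8 of the insulin-like growth factor axis the marker Igfbp3 was higher, and 2 were lower, Igfbp7 and the rule gene Pappa.

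Transcription factor genes split the groups in both directions. Of 19 measured keratinocyte factors 5 were higher in members, namely Foxq1, Pax9, Klf4, Hopx and Tbx3, and 2 lower, Sox2 and Barx2. Foxq1, a forkhead factor needed for normal hair structure, had 211 CPM in members, 4.21 CPM in Pappa-type cells and 74.3 CPM in cells low in both sets at ZT12. At ZT0 Foxq1 had 193 CPM in members, 10.8 CPM in Pappa-type cells and 97.3 CPM in cells low in both sets. Pax9, required in mice for normal filiform papillae, had 654 CPM in members and 332 CPM in other basal cells at ZT12, and 730 CPM in members and 357 CPM in other basal cells at ZT0. Barx2 had 240 CPM in members against 498 CPM in other basal cells at ZT12 and 201 CPM in members against 397 CPM in other basal cells at ZT0. Sox2, which has a role in taste bud development, had 122 CPM in members against 219 CPM in other basal cells at ZT12 and 98.8 CPM in members against 162 CPM in other basal cells at ZT0. Members thus had more Foxq1 and Pax9 and less Sox2 and Barx2 than the other basal cells of the same library.

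Of 6 genes fixed as marks of filiform papilla keratinocytes, the 3 that could be measured, Hoxc13, Krt16 and Krt6a, were higher in members by the limit. For Krt16 this rested on few cells, since 10 members held 63.9% of its UMIs at ZT12 and 68.7% at ZT0. Without the UMIs of those 10 cells Krt16 had 64.6 CPM in ZT12 members and 67.8 CPM in ZT0 members. Other basal cells, with none of their UMIs left out, had 76.4 CPM at ZT12 and 28.6 CPM at ZT0. Only members were trimmed, so these values are not a like comparison. Hoxc13, a homeobox gene of hair and filiform papillae, had 58.2 CPM in members, 0.602 CPM in Pappa-type cells and 9.87 CPM in cells low in both sets at ZT12. At ZT0 Hoxc13 had 37.9 CPM in members, 0 in Pappa-type cells, where 3 UMIs would be 0.829 CPM, and 15.3 CPM in cells low in both sets. The ratio of members over all other basal cells was 9.94 (7.7 to 13) at ZT12 and 5.54 (4 to 7.8) at ZT0. Hoxc13 also stood at 31.6 CPM at ZT12 and 30.6 CPM at ZT0 in cells low in basal genes. The other 3 genes of the list were below the 20 CPM limit. Krt36, a hair-type keratin, had 10.1 CPM in members and 9.99 CPM in other basal cells at ZT12, and 5.57 CPM in members and 6.85 CPM in other basal cells at ZT0. Krt84, another hair-type keratin, had 1.51 CPM in members and 2.97 CPM in other basal cells at ZT12, and 1.86 CPM in members and 1.31 CPM in other basal cells at ZT0. Krt6b had the lower value in members of both libraries, with 5.30 CPM in members and 10.9 CPM in other basal cells at ZT12, and 2.68 CPM in members and 4.23 CPM in other basal cells at ZT0. The list as a whole thus had no single direction.

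Some keratins, but not all, differed between members and other basal cells. Krt14, a keratin of the basal layer, had 16172 CPM in members and 7512 CPM in other basal cells at ZT12, and 14041 CPM in members and 6569 CPM in other basal cells at ZT0. It was the 1 of 7 basal markers that passed the limit. Krt24 had 464 CPM in members and 67.0 CPM in other basal cells at ZT12, and 703 CPM in members and 129 CPM in other basal cells at ZT0. It was detected at 5000 UMIs in 52.1% of ZT12 members, 14.4% of other basal cells and 45.5% of cells low in basal genes, so members were not the only cells with Krt24. Krt6a had 4289 CPM in members and 2606 CPM in other basal cells at ZT12 and 3904 CPM in members and 1485 CPM in other basal cells at ZT0. Of 8 measured genes of differentiating keratinocytes, 3 were 1.5-fold higher in members, Krtdap, Sbsn and Krt76, and 3 were lower, Krt13, Krt4 and Calml3. For Krt76 this rested on few cells, since 10 members held 97.7% of its UMIs at ZT12 and 85% at ZT0. Sbsn, which encodes suprabasin, had 184 CPM in members and 70.5 CPM in other basal cells at ZT12, and 255 CPM in members and 69.8 CPM in other basal cells at ZT0. Krtdap, a keratinocyte differentiation gene, had 88.4 CPM in members and 48.4 CPM in other basal cells at ZT12, and 98.1 CPM in members and 43.2 CPM in other basal cells at ZT0. The list therefore had no common direction. The mucosal keratins were lower, Krt13 at 3343 CPM in members against 8436 CPM in other basal cells at ZT12 and 1625 CPM in members against 3946 CPM in other basal cells at ZT0, and Krt4 at 444 CPM in members against 1242 CPM in other basal cells at ZT12 and 183 CPM in members against 507 CPM in other basal cells at ZT0. The Krt13 difference was larger relative to the cells low in both sets, with a log2 ratio of -1.83 at ZT12 and -1.76 at ZT0, against -0.23 at ZT12 and -0.69 at ZT0 relative to Pappa-type cells. In the library with the weaker ratio, Krt4 had -1.86 relative to cells low in both sets and -0.19 relative to Pappa-type cells. Krt14, Krt16 and Krt17 are close relatives, as are Krt6a and Krt6b, and the counting of reads shared within either set was not stated. Spink5, a serine protease inhibitor of the upper epidermis, had 767 CPM in members and 140 CPM in other basal cells at ZT12 and 705 CPM in members and 44.3 CPM in other basal cells at ZT0, and it reached 819 CPM at ZT12 and 903 CPM at ZT0 in cells low in basal genes. Spink5 and Krt24 were thus also present in cells low in basal genes.

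The remaining genes named among those higher in members were Kazald1, Cux1, Fam117b and Slc39a10. Cux1, a homeodomain repressor, had 495 CPM in members and 144 CPM in other basal cells at ZT12, and 429 CPM in members and 116 CPM in other basal cells at ZT0. Kazald1, which encodes a secreted protein of the IGFBP-related type, had 90.2 CPM in members and 24.8 CPM in other basal cells at ZT12, and 104 CPM in members and 24.8 CPM in other basal cells at ZT0. Slc39a10, a zinc importer gene, had 157 CPM in members against 42.4 CPM in other basal cells at ZT12 and 154 CPM in members against 48.6 CPM in other basal cells at ZT0. The ratios of all 4 genes lay between 3.17 and 4.18 in either library.

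Most of the 10 named genes lower in members were high in 1 of the other basal groups. Pappa, which encodes a protease of insulin-like growth factor binding proteins, was kept low by the rule and had 24.2 CPM in members and 18.4 CPM in cells low in both sets at ZT12. Crabp1, a retinoic acid binding protein gene, and Hpgd, which encodes a prostaglandin-degrading enzyme, were high in Pappa-type cells and low in both other groups. Hpgd had 140 CPM in members, 1071 CPM in Pappa-type cells and 134 CPM in cells low in both sets at ZT12, and 83.7 CPM, 487 CPM and 113 CPM in these groups at ZT0. Other genes were highest in the cells low in both sets. Cyp2f2, a cytochrome P450 gene, had 32.8 CPM in members, 75 CPM in Pappa-type cells and 199 CPM in cells low in both sets at ZT12, and 4.54 CPM, 26.8 CPM and 66.4 CPM in these groups at ZT0. Krt4, Krt13, 2610528A11Rik, Ikzf2 and H19 followed the same order in both libraries. Car12, a carbonic anhydrase gene, had log2 ratios of members over each of these groups between -0.99 and -1.34, with 76.7 CPM in members of both libraries against 177 CPM in other basal cells at ZT12 and 173 CPM at ZT0.

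Markers of other cell types differed in level. Among fibroblast markers Col1a1, Col1a2, Col3a1 and Lum were at 0 in both libraries, yet Dcn, the proteoglycan decorin, had 558 CPM in members and 634 CPM in other basal cells at ZT12 and 1219 CPM in members and 1125 CPM in other basal cells at ZT0. The melanocyte list summed to 6.35 CPM at ZT12 and 7.63 CPM at ZT0, with Tyrp1 and Tyr at 0. The taste cell list summed to 4.24 CPM at ZT12 and 5.77 CPM at ZT0, with Trpm5, Gnat3 and Car4 at 0. The muscle and endothelial lists summed to under 1 CPM in either library. The myeloid and Langerhans list summed to 13.9 CPM at ZT12 and 22.9 CPM at ZT0, with Lyz2 and Csf1r at 0, the T cell list to 0.454 CPM at ZT12 and 3.30 CPM at ZT0, and the Schwann cell list to 23.9 CPM at ZT12 and 13.4 CPM at ZT0, led by Ngfr, with Sox10 at 0. The Merkel cell list summed to 241 CPM in ZT12 members and 242 CPM in ZT0 members, against 295 CPM at ZT12 and 267 CPM at ZT0 in other basal cells. Its defining genes Krt20 and Atoh1 were at 0, and the sum came from Sox2 and Isl1, with Piezo2 at 16.9 CPM in ZT12 members and 19.6 CPM in ZT0 members. The part of these markers in the results was not tested. The basal keratinocyte list summed to 31929 CPM in members and 24149 CPM in other basal cells at ZT12, and to 28042 CPM in members and 20287 CPM in other basal cells at ZT0. Of its 7 genes Col17a1, Itga6 and Itgb4 chose the basal cells, so their presence was fixed. Of the others, Krt14 was the higher in members and Krt15 had the lower value in members, at 6836 CPM in members and 8790 CPM in other basal cells at ZT12 and 5561 CPM in members and 6832 CPM in other basal cells at ZT0.

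Within members, ZT12 and ZT0 differed in clock output, DNA replication and interferon-related genes, and most of these differences also stood in the other basal cells. Over the members of both libraries, 2969 genes had a mean of at least 50 CPM. Of these, 17 were at least 2-fold higher at ZT12 (0.573%) and 12 at least 2-fold lower (0.404%). These counts used the ratio alone, and an interval that excludes 1 was asked only of the genes named for time. At the 1.5-fold limit and 20 CPM, 138 of 5995 genes (2.3%) were higher and 113 (1.88%) lower. The median log2 ratio of all these genes was -0.02 in members and 0.00 in other basal cells. Each difference is between 1 library and 1 other, and time cannot be told apart from mouse, dissociation or library.

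The marker set itself differed little. Npnt had 105 CPM at ZT12 and 85.0 CPM at ZT0 in members, Frem2 135 CPM at ZT12 and 101.4 CPM at ZT0, and Sema3c 190 CPM at ZT12 and 191 CPM at ZT0, all within 1.5-fold, and the rule fixed a minimum for their sum. Among the 3 other markers, Nrp2 was the 1 past 1.5-fold, with 133 CPM at ZT12 and 225 CPM at ZT0. Trabd2b had 136 CPM at ZT12 and 155 CPM at ZT0, and Igfbp3 579 CPM at ZT12 and 693 CPM at ZT0.

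Clock genes of the evening phase were higher at ZT12 in members for 6 of 6 measured genes, with a median log2 ratio of 2.53, against 2.5 in other basal cells. Dbp, a transcription factor driven directly by the clock (chromosome 7), had 283 CPM in ZT12 members and 4.33 CPM in ZT0 members, a ratio of 65.4 (42.6 to 106), against 375 CPM at ZT12 and 9.33 CPM at ZT0 in other basal cells. Per3, a clock repressor, had 141 CPM in ZT12 members and 12.0 CPM in ZT0 members, and Nr1d1, which encodes the repressor REV-ERB alpha, had 91.4 CPM in ZT12 members and 16.1 CPM in ZT0 members. Tef, a relative of Dbp, had 130 CPM in ZT12 members and 23.7 CPM in ZT0 members. Genes of the morning phase ran the other way. Arntl, which encodes the activator BMAL1, had 1.36 CPM in ZT12 members and 31.1 CPM in ZT0 members, with a ratio of ZT0 over ZT12 of 22.9 (11.7 to 51.0), and Npas2, which encodes a partner of BMAL1, had 1.82 CPM in ZT12 members and 11.5 CPM in ZT0 members. Cry1 and Clock, the 2 morning genes measured above 20 CPM, were both past 1.5-fold, with Cry1 at 9.68 CPM in ZT12 members and 38.6 CPM in ZT0 members. Members and other basal cells thus showed the same direction for each of these genes. In windows around start sites, the E-box CACGTG, which CLOCK and BMAL1 bind, was found for 1 of 9 matched genes named as higher at ZT12, Tef. These 9 also hold genes outside the clock lists, such as Krt76. The motif occurred in 7.15% of all windows. Tef had 2 windows, so the count of genes and this share of windows are unlike measures.

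Genes of DNA replication were higher at ZT12 for 16 of 17 measured genes and lower for none, with a median log2 ratio of 1.17 in members and 1.00 in other basal cells. Mcm3, a subunit of the replicative helicase, had 70.5 CPM in ZT12 members and 14.8 CPM in ZT0 members, a ratio of 4.75 (3.70 to 6.17), against a ratio of 2.54 (2.17 to 2.98) in other basal cells. Mcm5 had 47.4 CPM in ZT12 members and 9.90 CPM in ZT0 members, and Uhrf1, which maintains DNA methylation at replication, 36.9 CPM in ZT12 members and 8.87 CPM in ZT0 members. Wee1, a mitotic inhibitor kinase also under clock control in the liver, had 58.4 CPM in ZT12 members and 17.9 CPM in ZT0 members. The gene short of the limit was Slbp, whose product binds histone mRNA, with 59.0 CPM in ZT12 members and 48.0 CPM in ZT0 members. None of 4 measured mitosis genes passed 1.5-fold, but the rule removed cells with mitotic transcripts. Cells that met every other part of the rule and were left out as mitotic numbered 10 at ZT12 and 38 at ZT0, and their part in the replication genes was not tested.

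Interferon-related genes were lower at ZT12. Of the interferon-stimulated list 3 of 3 measured genes were lower, with a median log2 ratio of -1.88 in members and -2.07 in other basal cells, and of the class I antigen presentation list 6 of 6, with -1.55 in members and -1.90 in other basal cells. Ifi27l2a, an interferon-induced gene, had 19.97 CPM in ZT12 members and 419 CPM in ZT0 members, against 35.9 CPM at ZT12 and 744 CPM at ZT0 in other basal cells. B2m, the light chain of class I molecules, had 23.8 CPM in ZT12 members and 249 CPM in ZT0 members. H2-K1, a class I heavy chain, had 70.7 CPM in ZT12 members and 365 CPM in ZT0 members. The same genes differed in cells low in basal genes, where B2m had 26.6 CPM at ZT12 and 376 CPM at ZT0. H2-K1 and H2-D1 are close relatives, so reads may have been split between them. Against other basal cells, none of 7 measured class I genes passed 1.5-fold in both libraries, and 2 of 5 measured interferon-stimulated genes were lower in members, Ifi27l2a and Ifitm3, beside 1.44% of all genes. B2m had 33.8 CPM in other basal cells at ZT12 and 463 CPM at ZT0, and the class I list had a median log2 ratio of members over other basal cells of -0.29 at ZT12 and -0.83 at ZT0.

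Of the 17 genes higher at ZT12 in members, 16 had the same sign in other basal cells and 12 were 2-fold there too. Of the 12 lower genes, all 12 had the same sign and 9 were 2-fold. The exception was Fst, which encodes the activin and BMP antagonist follistatin, with 71.9 CPM in ZT12 members and 30.5 CPM in ZT0 members but 16.8 CPM at ZT12 and 32.7 CPM at ZT0 in other basal cells. Fst came from few cells. It had a UMI in 58 of 357 members at ZT12 and 25 of 213 at ZT0, and the 10 cells with most of it held 73.9% and 87.2% of its UMIs. Krt76, a keratin of the differentiated mucosa, was carried by 1 cell. It had 158 CPM in ZT12 members and 12.4 CPM in ZT0 members, but 790 of its 1042 ZT12 UMIs lay in 1 member, and the log2 ratio of 3.57 became 2.15 without the top cell of each library, -0.78 with a basal limit of 20 per 10000 and -1.16 without the cells of highest doublet score.

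Other genes named for time had smaller ratios. Iffo2, an intermediate filament family gene, had 180 CPM in ZT12 members and 72.6 CPM in ZT0 members, and Mycl, a MYC family gene, had 83.5 CPM in ZT12 members and 35.1 CPM in ZT0 members. Hopx, a homeodomain-only regulator known from slow-cycling epithelial cells, had 228 CPM in ZT12 members and 615 CPM in ZT0 members. Serpine2, a protease inhibitor gene, had 38.3 CPM in ZT12 members and 124 CPM in ZT0 members, and Procr, the endothelial protein C receptor gene, 56.9 CPM in ZT12 members and 133 CPM in ZT0 members. Dcn had 558 CPM in ZT12 members and 1219 CPM in ZT0 members. Krt13 and Krt4, which were lower in members than in other basal cells, were higher in ZT12 members, with 3343 CPM at ZT12 and 1625 CPM at ZT0 for Krt13. The log2 ratio of Krt4, 1.28, became 0.65 when the 5% of cells that scored highest in Scrublet were left out, 0.75 after thinning and 0.87 with each cell weighted alike, under 2-fold in each case. Iffo2 became 0.90 after thinning, and Dcn -0.86 with a basal limit of 20 per 10000 and -0.88 with a member limit of 5 UMIs. Median depth moved with time as well, at 17968 UMIs in ZT12 members and 21931 UMIs in ZT0 members, and its part was not tested. None of 12 measured immediate early genes and none of 11 heat shock genes, which respond to dissociation, passed 1.5-fold in either direction.

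**Figure D4:**
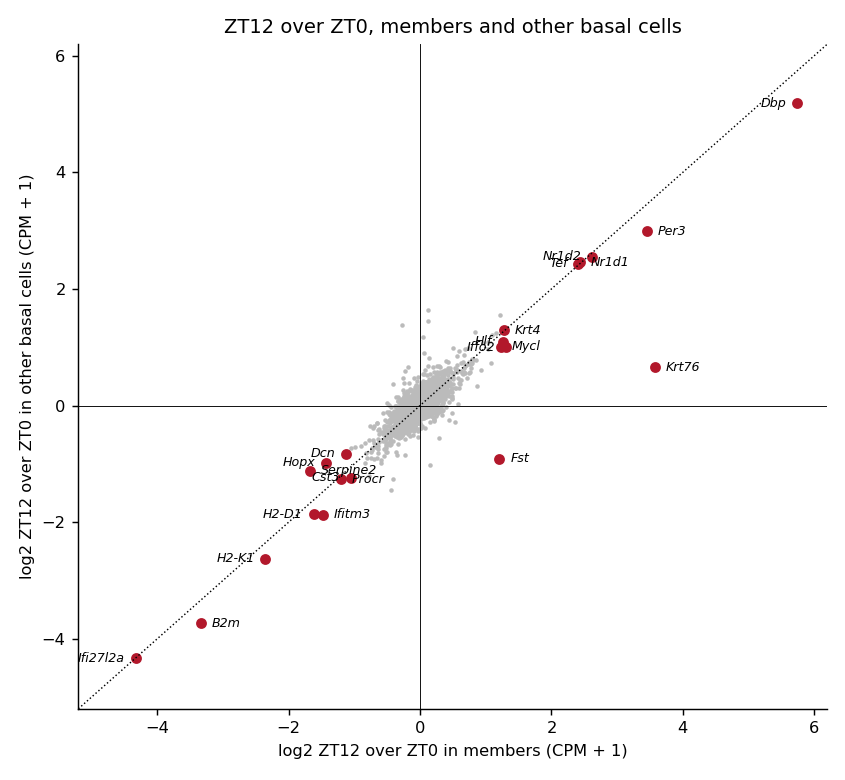
Log2 ratio of ZT12 over ZT0 (CPM plus 1) in members (horizontal) and in other basal cells (vertical) for the 2969 genes of at least 50 CPM, grey, with the 20 named genes and Fst in red and a dotted line of equality. Most named genes lie near the line, Krt76 lies to the right of it, and Fst has 1.21 in members and -0.92 in other basal cells.

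**Figure D5:**
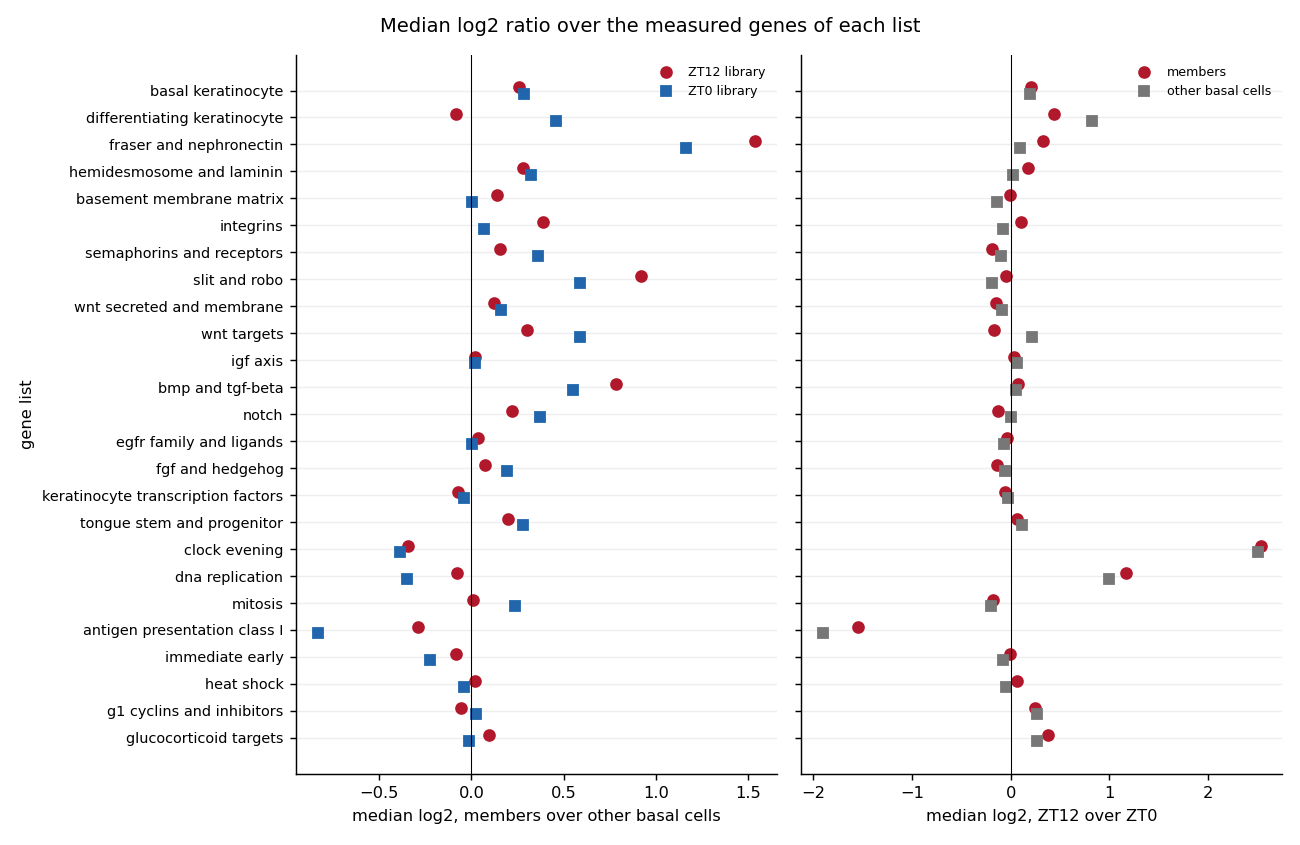
Median log2 ratio over the measured genes of each list with at least 4 of them, for members over other basal cells at ZT12 and ZT0 (left) and for ZT12 over ZT0 in members and other basal cells (right). On the left the BMP and TGF-beta list has 0.78 at ZT12 and 0.55 at ZT0. On the right the evening clock list has 2.53 in members and the class I list -1.55.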

How the data were processed

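Per the submitters' processing notes the reads were processed with Cell Ranger 2.1.1 on mm10; per the file headers the deposited matrices of raw UMI counts came from Cell Ranger 4.0.0. The annotation release was not stated in the sources used here. Of 32285 gene identifiers, 32158 were found in GENCODE M21, the source of gene positions (mm10). Cells were filtered and classed by the rule given in the report, and counts were summed per class and library (Python 3.11.15, scipy 1.17.1, scanpy 1.11.5). With 1 library per time no test was possible. Intervals of shares are exact Clopper-Pearson and those of ratios exact conditional binomial, both at 95%. Scrublet called 8 cells of the ZT12 library (0.313%) and 3 of the ZT0 library (0.197%) as doublets, 1 of them a member, and none was removed, so doublets were in effect not treated. No correction for free RNA was made.

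The members and gene lists were chosen with earlier results of these data known. Named genes were the rule genes, markers and clock genes, the 15 highest and 10 lowest genes past 2-fold in both libraries by the weaker ratio, the 10 highest and lowest past 2-fold between times, and up to 4 genes per list. Any other gene was chosen after its values were seen. The ratio computation was tested on simulated counts. Alternatives covered cell filters, the limits of the rule, depth, doublet scores, minimum CPM, pseudocount, scaling (edgeR 4.0.16 TMM), averaging and the comparison cells. A gene of one list is not reported here.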

Additional observations from a re-analysis of the deposited data

Results flagged for a closer look

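The log2 ratios below had opposite signs in the 2 groups compared, and none of these differences was tested. Between times, Fst had a log2 ratio of ZT12 over ZT0 of 1.21 in members and -0.92 in other basal cells, and Krt16, a stress keratin, had -0.27 in members and 1.39 in other basal cells. Trabd2b had -0.19 in members and 0.65 in other basal cells, and Sfrp1 had 0.35 in members and -0.35 in other basal cells. Dnajb1, a heat shock cochaperone gene, had 0.44 in members and -0.25 in other basal cells. Fgfr3 had -0.18 in members and 0.23 in other basal cells, and Igfbp2 -0.054 in members and 0.084 in other basal cells. Between groups of cells, the log2 ratio of members over other basal cells was -0.56 at ZT12 and 0.65 at ZT0 for Notch2, -0.19 at ZT12 and 0.22 at ZT0 for Fgfr3, and -0.18 at ZT12 and 0.11 at ZT0 for Dcn. The Krt16 UMIs of members were concentrated, with 63.9% of them at ZT12 and 68.7% at ZT0 in the 10 cells that held most.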

How the results depend on the processing

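With 1 library per time the limits are those of 2 libraries: intervals cover counting error only, a 3-UMI rule depends on depth, and genes under 20 CPM were not counted in lists. No paired analysis was possible because each time has 1 library and no result comes from a test. The ratio of the share of members at ZT12 over ZT0 ranged from 0.84 to 1.04 over all alternatives, and members made up 61.4 to 63.5% of their own neighbours at ZT12 and 68.2 to 71.5% at ZT0. The counts of genes moved with the limits. Members against other basal cells gave 46 higher and 16 lower genes, which became 76 and 25 at a mean of at least 20 CPM, 25 and 7 at 100 CPM, 163 and 89 with no minimum, and 97 and 40 at 1.5-fold. The 16 lower genes became 6 when 2 UMIs made a member, and 9 against Pappa-type cells alone. Within members the 17 genes higher and 12 lower at ZT12 became 43 and 25 at 20 CPM, 200 and 252 with no minimum, 52 and 46 at 1.5-fold, and 30 and 41 when cells were thinned to 5000 UMIs, of which 10 and 9 were shared with the counts at full depth; 6 genes were higher at 100 CPM. Fewer members remain after thinning. Of the named genes, Krt76 turned to -0.78 with a basal limit of 20 per 10000 and to -1.16 without the 5% of cells with the highest Scrublet scores, and Pappa had 0.028 against basal cells low in both sets, where the rule does not separate the groups. TMM scaling shifted the median log2 ratio by 0.04 between times and by -0.02 between members and other basal cells in each library. Leaving out each gene's top cell was chosen after seeing the data.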

Other observations

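Members had more transcripts of the small heat shock protein gene Hspb1 than other basal cells, with 1518 CPM in members and 850 CPM in other basal cells at ZT12 and 1334 CPM in members and 727 CPM in other basal cells at ZT0. It was the 1 of 11 measured heat shock genes past 1.5-fold in both libraries. Sgk1, a kinase gene induced by glucocorticoids, had 221 CPM in members and 128 CPM in other basal cells at ZT12, and 282 CPM in members and 131 CPM in other basal cells at ZT0. Of 7 measured glucocorticoid target genes 2 were 1.5-fold higher in members, Sgk1 and Errfi1, and 1 was lower, Glul. The median log2 ratio of this list was 0.10 at ZT12 and -0.01 at ZT0. Cdkn1a, which encodes the cell cycle inhibitor p21, had 249 CPM in members and 136 CPM in other basal cells at ZT12, and 348 CPM in members and 146 CPM in other basal cells at ZT0. Cdkn1a was lowest in Pappa-type cells, at 52.9 CPM at ZT12 and 97.8 CPM at ZT0, and was 667 CPM in cells low in basal genes of both libraries.

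Glul, which encodes glutamine synthetase, was lower in members than in other basal cells and higher at ZT12 in both groups. It had 180 CPM in members and 325 CPM in other basal cells at ZT12, and 80.0 CPM in members and 136 CPM in other basal cells at ZT0. The cyclin gene Ccnd2 had 1215 CPM in ZT12 members and 623 CPM in ZT0 members, and Ccnd1 had 956 CPM in ZT12 members and 592 CPM in ZT0 members. Both cyclin genes were also higher at ZT12 in other basal cells.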
